A study of Mus musculus with 12 samples.

Results

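Muscle satellite cells of young mice that lack Hoxa9 were compared with those of young wild-type mice, knockout against wild type. The comparison uses 6 of the 12 RNA-seq libraries of the series, chosen by their labelled genotype and age: 3 libraries of wild-type and 3 libraries of Hoxa9 knock-out C57BL/6 mice, all 3 to 4 months old. In both groups the hindlimb muscles had been injured with barium chloride (50 µl of a 1.2% solution over about 20 sites), and the cells were isolated 3 days later. No library of uninjured muscle enters the comparison. The other 6 libraries, wild type and knockout at 22 to 28 months, entered the same fit and serve here as a second comparison of the genotypes. The labels do not say which part of Hoxa9 is missing, in which cells, how the cells were purified, or how many animals a library holds. The p-values thus reflect only how far these samples differ within a group, and that spread may be technical.

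Satellite cells are the stem cells of skeletal muscle. They rest under the sheath of the muscle fibre, marked by the transcription factor Pax7. After injury they enter the cell cycle as myoblasts under Myf5 and Myod1, and then differentiate under Myog or return to rest. Hoxa9 belongs to the Hoxa cluster of homeobox genes, whose proteins bind DNA with partners of the TALE family (Pbx, Meis and Pknox proteins). Trithorax-type methyltransferases keep Hox genes active and Polycomb complexes keep them silent.

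Hoxa9 was listed at 7.96, 11.4 and 11.5 CPM in wild type and 7.21, 5.52 and 6.46 CPM in knockout. The 3 knockout libraries lay below the 3 wild-type libraries, from 156 against 381 reads over each group, but the difference missed the threshold used throughout, 0.05 for the p adjusted over all genes in the quasi-likelihood test of edgeR (log2 fold change -0.67 ± 0.24 SE, adjusted p = 0.0671), and also with GC offsets, described below (-0.62, adjusted p = 0.144). Without wild-type replicate 1 it was -0.83 (adjusted p = 0.043). In old mice Hoxa9 was at a mean of 17.6 CPM in wild type and 5.8 CPM in knockout and passed (log2 fold change -1.63 ± 0.25 SE, edgeR adjusted p = 0.00235). The difference between the ages did not pass (interaction adjusted p = 0.399). Reads from a part of the gene outside the deletion would still be counted, and with the deleted part not stated these reads do not check the labels. Hoxa10, the next gene of the cluster, was at 10.7, 13 and 11 CPM in wild type and 9.12, 8.6 and 11.4 CPM in knockout, groups that overlapped (log2 fold change -0.26 ± 0.20 SE, adjusted p = 0.384).

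The libraries held 4193433 to 20337015 reads counted in genes, and knockout replicate 3 was the shallowest. Reads outside annotated genes were 35.2% to 38.3% in wild type, 51% and 52.5% in knockout replicates 1 and 2, and 32.2% in knockout replicate 3. Lars2, a mitochondrial leucyl-tRNA synthetase gene, took 0.0258% to 0.11% of the gene reads in wild type and 2.5%, 8.92% and 0.484% in knockout replicates 1 to 3. Within each library, the deviation of a gene's level from its mean over the 6 libraries went with the GC content of its longest transcript, with Spearman coefficients across genes of 0.399, 0.474 and 0.394 in wild type and -0.388, -0.555 and -0.158 in knockout. The genotypes therefore differed in a trend along GC content, and knockout replicate 3 stood nearest to wild type. Xist was at 479 to 2031 CPM and the Y-linked Ddx3y at 0 to 2.93 CPM in the 6 young libraries. CPM are counts scaled to a common library size with trimmed-mean factors.

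Of 13540 genes tested, 2831 (20.9%) passed the threshold. Of these, 1477 genes (10.9%) were higher and 1354 genes (10%) lower in knockout. No overlap between the 3 libraries of each genotype was seen for 2702 of the 2831, and for 4828 of all 13540 genes. The changes were mostly small: the median size among the 2831 was 0.75 on the log2 scale, and 706 exceeded 1. Tested against a minimum change of 2-fold, 0 genes passed, with 416 at an unadjusted p under 0.05. Ttr, at a mean of 2505 CPM in wild type and 0 CPM in knockout, did not pass either. With 3 libraries per group a count of 0 in this test thus does not show that changes were under 2-fold. Without wild-type replicate 2 the counts were 774 higher and 705 lower, and without knockout replicate 2 they were 1027 and 563. The share of calls that were higher depended on the scaling, and was 52.2% as given, 62.2% with Lars2 left out of the library sizes (1796 higher, 1092 lower) and 40.4% with library size alone (865 higher, 1278 lower).

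The direction of a change followed GC content. Split into 5 bins of about equal size, the genes of lowest GC content (32.6% to 44.1%) were higher in knockout in 36.3% of cases and lower in 0.904%, with a median log2 fold change of 0.51. In the bin of highest GC content (55.7% to 72.8%), 0.226% were higher and 24% lower, with a median of -0.38. Called genes had a median GC content of 42.4% where higher and 55.4% where lower, against 49.9% over all genes tested with a value. The fit was repeated with GC offsets, a smooth curve of each library's deviation on GC content taken out gene by gene. With them the medians of the 5 bins were 0.02 to 0.04. The offsets also take out any genotype difference that follows GC content for another reason, and the source of the trend was not tested.

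**Figure D1:**
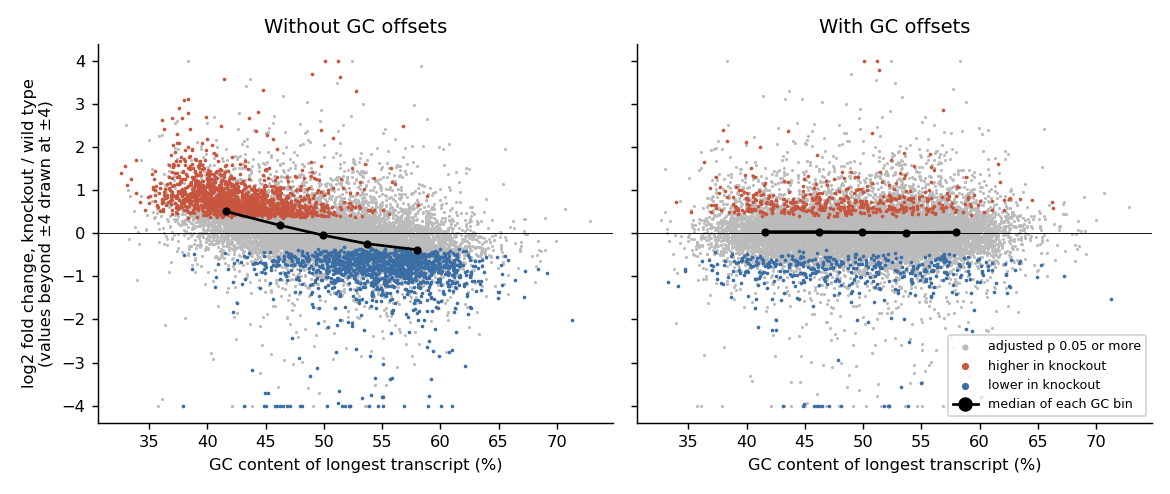
Log2 fold change of each gene in young knockout against wild type (vertical axis) by the GC content of its longest transcript in percent (horizontal axis), without and with GC offsets. Grey points missed the adjusted p threshold of 0.05, red points were higher and blue points lower in knockout, and the black line joins the medians of 5 bins, from 0.51 to -0.38 without offsets and 0.02 to 0.04 with them.

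Once GC offsets were used, 6.6% of the genes (894) passed, of which 452 were higher (3.34% of all) and 442 lower (3.26%). Of the 2831 genes, 667 were called the same way in both fits (23.6%; 337 higher, 330 lower), 0 were called with opposite signs, and 227 passed with offsets alone. Among the 667, 258 higher and 223 lower genes kept their call in each of the 6 fits that left out 1 young library without offsets. When the offsets were used in those 6 fits as well, 49 higher and 48 lower genes kept it throughout. Counts with offsets were 60 higher and 84 lower without wild-type replicate 2, 159 and 160 without wild-type replicate 3, 129 and 113 without knockout replicate 2, and 54 and 115 when the 6 young libraries were fitted alone. Genes below are therefore given with their outcome in both fits, and the 30 leading genes passed in both by the rule that chose them. Unless an exception is named beside it, it kept its call without each young library in turn when no offsets were used.

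**Figure D2:**
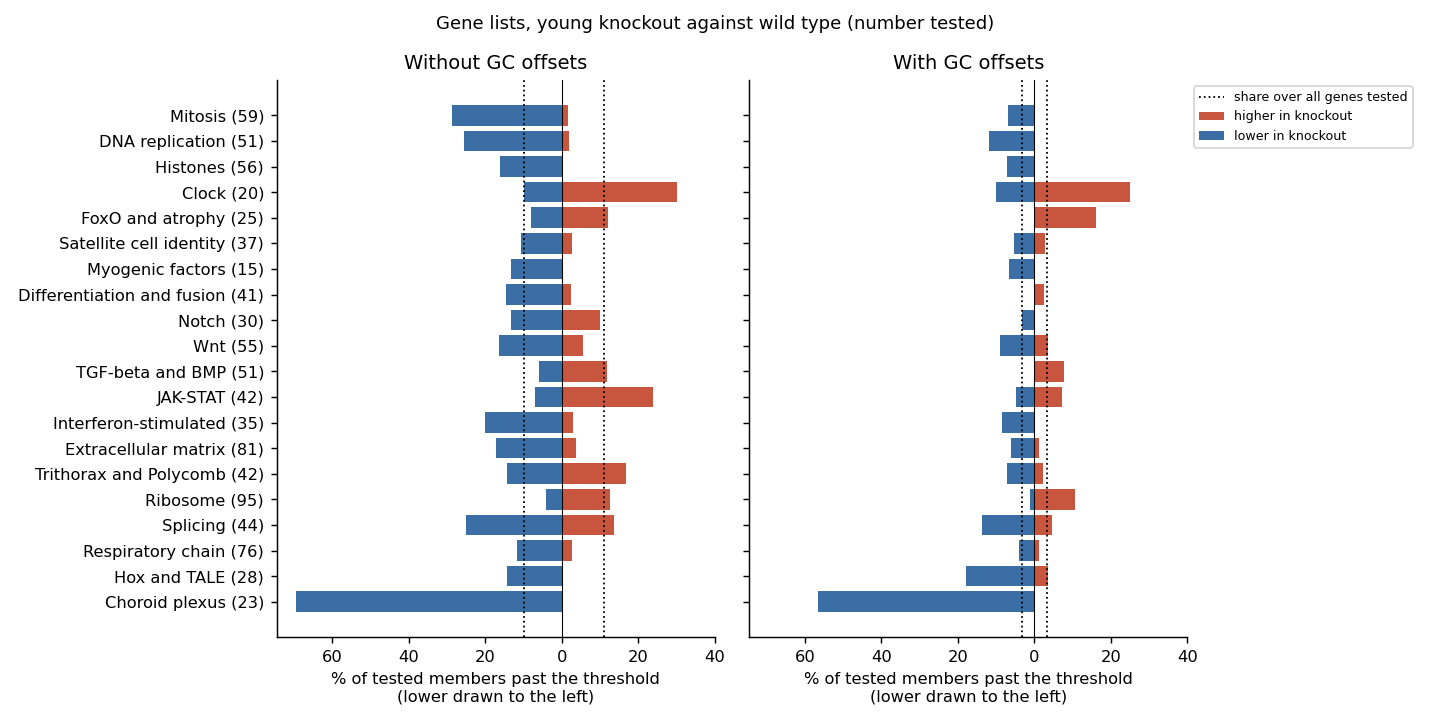
Share of the tested members of 20 gene lists that passed the threshold in young knockout against wild type, in percent, drawn to the right where higher in knockout and to the left where lower, without GC offsets and with them. The number tested stands in brackets and dotted lines mark the share over all genes tested (10.9% higher and 10% lower without offsets, 3.34% and 3.26% with them). The mitosis and replication lists lie to the left in both panels, and the clock list mostly to the right.

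Among genes called in both fits without overlap of the groups, the largest changes in the lower direction were carried by genes of the choroid plexus, the brain epithelium that secretes cerebrospinal fluid. Ttr, the thyroid hormone carrier transthyretin, was listed at 1121, 4264 and 2131 CPM in wild type and 0, 0 and 0 CPM in knockout. Against 3 counts over the knockout libraries, a floor of 0.126 CPM that covers counting error only, it was at least 19940-fold lower. Otx2 and Kcne2 were also listed at 0 in all 3 knockout libraries, at least 50.3-fold and 145-fold lower. Otx2 did not pass with GC offsets (adjusted p = 0.0551) or without wild-type replicates 2 or 3 or knockout replicates 1 or 2 (fitted log2 fold changes -8.61, -9.07, -9.04 and -9.07, whose size depends on the prior count). Enpp2, which makes lysophosphatidic acid, was at 406, 1557 and 743 CPM in wild type and 8.7, 18.4 and 21.6 CPM in knockout (log2 fold change -5.84 ± 1.19 SE, adjusted p = 0.00878). Kl, the FGF23 co-receptor klotho, was at 25.5, 82.1 and 39.8 CPM in wild type and 0.249, 0.642 and 0.248 CPM in knockout (log2 fold change -6.96 ± 1.36 SE, adjusted p = 0.00745). Of the 23 choroid plexus genes tested, a list written with the leading genes of these libraries known, 16 were lower and 0 higher, and 13 were lower with GC offsets. That count was 9 without wild-type replicate 2, 9 without knockout replicate 1 and 6 without knockout replicate 2, and with GC offsets it was 0 without each of these 3 libraries.

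The summed level of the 23 choroid plexus genes was 3454, 8371 and 5110 CPM in the wild-type libraries and 657, 628 and 586 CPM in the knockout libraries. Igf2, an insulin-like growth factor that these cells share with myoblasts, made up most of the remainder in knockout (1768, 2036 and 1982 CPM in wild type and 612, 568 and 473 CPM in knockout). Within wild type the leading members moved together, lowest in replicate 1 and highest in replicate 2. The labels name muscle satellite cells and no brain tissue, and the source of these reads was not tested. Slc13a4, a sulfate transporter gene, was at 6.84, 21.6 and 11.3 CPM in wild type and 0.58, 0.513 and 0.994 CPM in knockout (log2 fold change -4.32 ± 0.87 SE, adjusted p = 0.0066; -4.13 with GC offsets, adjusted p = 0.0212). Slc4a5, Clic6, F5, Vat1l and Calml4, the other leading members with exceptions, missed the threshold without knockout replicate 2 (log2 fold changes -4.69, -5.49, -4.94, -3.47 and -2.79). F5 and Vat1l also missed it without knockout replicate 1 (-4.42 and -3.28), and Vat1l and Calml4 without wild-type replicate 2 (-3.16 and -2.19).

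Among the leading lower genes outside that list was Eln, which encodes elastin, the elastic fibre of the matrix, at 46.2, 32.9 and 29.1 CPM in wild type and 3.9, 5.39 and 8.94 CPM in knockout (log2 fold change -2.64 ± 0.40 SE, adjusted p = 0.00147; -2.22 with GC offsets, adjusted p = 0.00931). Creb3l1, a membrane-bound transcription factor of the secretory pathway, was at 258, 201 and 230 CPM in wild type and 76.2, 34 and 35.5 CPM in knockout (log2 fold change -2.22 ± 0.29 SE, adjusted p = 0.000971; -1.77 with GC offsets, adjusted p = 0.0115). Igfbp2, a binding protein of insulin-like growth factors that the choroid plexus also makes, was at 29.8, 97.1 and 56.2 CPM in wild type and 7.46, 6.42 and 7.7 CPM in knockout (log2 fold change -3.08 ± 0.46 SE, adjusted p = 0.00198; -2.56 with GC offsets, adjusted p = 0.0123). That the knockout libraries lay below the wild-type libraries for all 3 follows from the rule that chose the leading genes. Aplp1, a relative of the amyloid precursor protein, had a log2 fold change of -2.72 ± 0.60, and the unnamed transcripts 2700023E23Rik and Gm5506 had -2.89 ± 0.36 and -2.24 ± 0.48 (SE).

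In the higher direction the leading genes were Lars2 and genes of much lower abundance. Lars2 was at 255, 1035 and 509 CPM in wild type and 24581, 95556 and 5047 CPM in knockout (log2 fold change 6.12 ± 1.56 SE, adjusted p = 0.0228), and it lost its call without any 1 wild-type library (5.76 to 6.77) and without knockout replicate 2 (4.69). Its share of the gene reads was uneven over the knockout libraries (2.5%, 8.92% and 0.484%). The source of these reads was not tested, so the values are not shown to be a rise of Lars2 mRNA. Arrdc3, an arrestin-like protein that lowers receptor signalling, was at 74, 83.2 and 85.2 CPM in wild type and 199, 333 and 346 CPM in knockout (log2 fold change 1.86 ± 0.20 SE, adjusted p = 0.000351; 1.34 with GC offsets, adjusted p = 0.00412). Ogn, a small proteoglycan also called mimecan, was at 40.6, 51.4 and 52.8 CPM in wild type and 142, 291 and 347 CPM in knockout (log2 fold change 2.43 ± 0.34 SE, adjusted p = 0.00144; 1.66 with GC offsets, adjusted p = 0.0236). Sytl5, a Rab27 effector of vesicle transport, was at 7.57, 5.25 and 6.9 CPM in wild type and 21.2, 33.9 and 23.4 CPM in knockout (log2 fold change 1.97 ± 0.27 SE, adjusted p = 0.000875; 1.81 with GC offsets, adjusted p = 0.00412). That all knockout libraries lay above all wild-type libraries for these 3 genes was a condition of the choice of leading genes.

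Zinc finger genes filled much of the rest: Zfp709, Zfp942, Zfp874a, Zfp874b, Zfp654 and Zxdb rose by 2.70 ± 0.47, 2.09 ± 0.34, 1.95 ± 0.31, 1.83 ± 0.25, 1.83 ± 0.19 and 2.21 ± 0.33 (SE), and all 6 passed with GC offsets (2.12, 1.32, 1.36, 1.31, 1.06 and 2.33). Over all 316 tested genes whose symbol starts with Zfp, a set chosen after its values were seen, 34.5% were higher and 6.01% lower, with a median of 0.41. With GC offsets these shares were 9.81% and 2.22%, with a median of 0.29, against 3.34%, 3.26% and 0.03 over all genes tested. Their median GC content was 45.3%. Etohi1 and Chic1 rose by 2.06 ± 0.43 and 1.77 ± 0.22. Angptl7 (4.31 ± 1.12) lost its call without every library other than knockout replicate 1, and Cldn4 (2.50 ± 0.75) without wild-type replicates 1 and 2 and knockout replicates 2 and 3 (2.09 to 2.45).

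**Figure D3:**
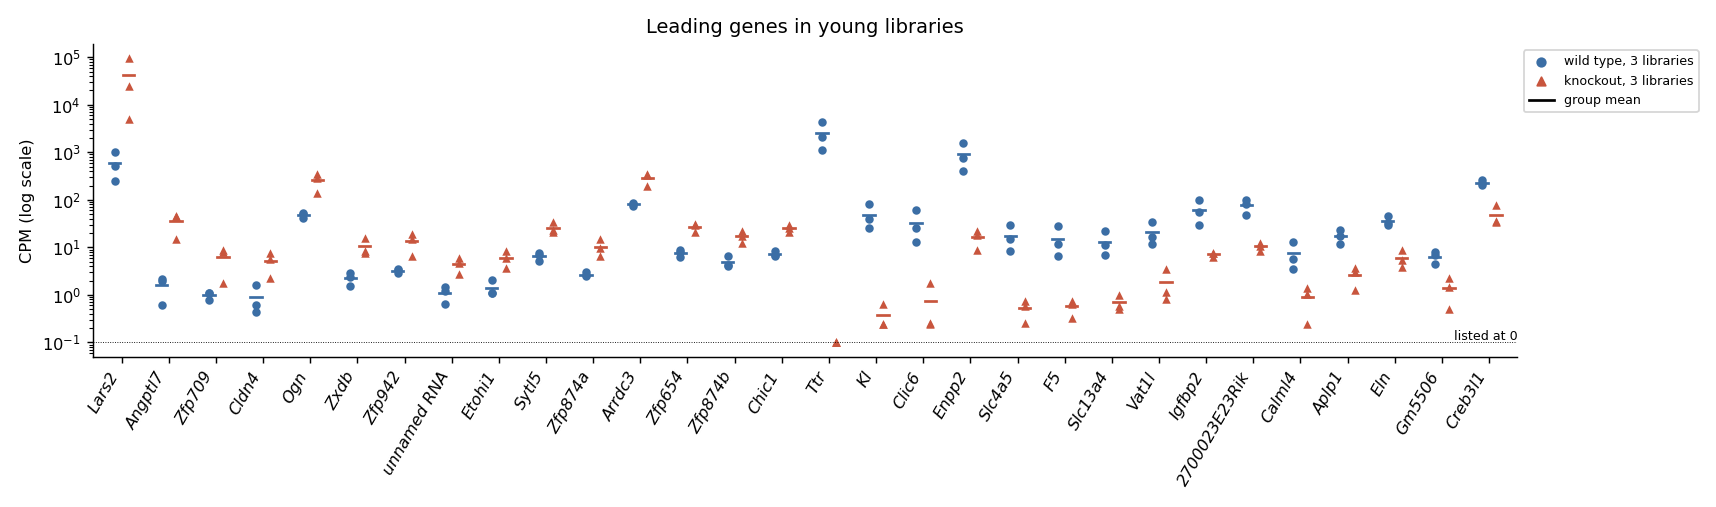
Level of the 30 leading genes in CPM on a log scale (vertical axis) in each young library, wild type as blue circles and knockout as red triangles, with bars at the group means. The 15 genes on the left were higher and the 15 on the right lower in knockout. The knockout points of Ttr are drawn on the line for values listed at 0.

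Satellite cell markers were abundant in every library. The summed level of the 38 identity genes was 12246 to 13293 CPM in wild type and 10699 to 13792 CPM in knockout. Of 37 tested members 1 was higher and 4 lower (2.7% and 10.8%, against 10.9% and 10% of all genes), or 1 and 2 with GC offsets. The median over the list was 0.09 (0.07 with GC offsets), with 20 log2 fold changes positive and 17 negative, so the 3 genes that follow do not stand for the list. Pax7 was at 397, 367 and 333 CPM in wild type and 238, 214 and 243 CPM in knockout, with all knockout libraries below wild type (log2 fold change -0.66 ± 0.14 SE, adjusted p = 0.00568), but it did not pass with GC offsets (-0.33, adjusted p = 0.147). Heyl, a Notch target that helps keep satellite cells at rest, was at 502, 489 and 440 CPM in wild type and 215, 184 and 222 CPM in knockout and passed in every fit without 1 library, with and without GC offsets (log2 fold change -1.21 ± 0.13 SE, adjusted p = 0.00027; -0.88 with GC offsets, adjusted p = 0.00412). Cdh15, the adhesion protein M-cadherin, was at 1039, 1288 and 1215 CPM in wild type and 793, 837 and 683 CPM in knockout (log2 fold change -0.61 ± 0.14 SE, adjusted p = 0.0103) and had -0.15 with GC offsets, adjusted p = 0.607. In bulk samples fewer cells of a type and less RNA per cell cannot be told apart, here and below.

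Of the factors that commit and differentiate myoblasts, 0 of 15 were higher and 2 lower (0 and 1 with GC offsets). Without offsets these shares were 0% and 13.3%, against 10.9% and 10% of all genes. Mef2d, a partner of the myogenic factors, was at 142, 146 and 143 CPM in wild type and 77.3, 57.2 and 76.3 CPM in knockout, with no overlap of the groups (log2 fold change -1.03 ± 0.13 SE, adjusted p = 0.000807; -0.71 with GC offsets, adjusted p = 0.00862). Tcf3, which encodes the E proteins that pair with Myod1, was at 191, 207 and 157 CPM in wild type and 118, 118 and 109 CPM in knockout (log2 fold change -0.69 ± 0.14 SE, adjusted p = 0.00525; -0.21 with GC offsets, adjusted p = 0.404). Myod1 was at 123, 219 and 157 CPM in wild type and 74.1, 82.4 and 549 CPM in knockout. Knockout replicates 1 and 2 lay below wild type and replicate 3 above it, so that the log2 fold change was 0.49 ± 0.71 with all libraries and -1.04 without replicate 3. Myf5 was at 270, 294 and 284 CPM in wild type and 187, 278 and 224 CPM in knockout, with overlap (adjusted p = 0.333). Myog was at 757, 1036 and 740 CPM in wild type and 667, 740 and 509 CPM in knockout. All 3 knockout values of Myog lay below wild type, with 740 CPM in both groups only by rounding, and the difference did not pass (adjusted p = 0.198). Myf5, which is not counted among the 15, was lower with GC offsets (-0.76, adjusted p = 0.0382).

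Among 41 tested genes of fusion and the early sarcomere, 1 was higher and 6 lower, with a median of -0.33. These shares were 2.44% and 14.6%, against 10.9% and 10% of all genes. With GC offsets 1 was higher and 0 lower, with a median of -0.13. Without wild-type replicate 2 or knockout replicate 2 the count of lower genes was 1, and without knockout replicate 1 it was 9. Adult fibre genes had a median of -0.64 (-0.42 with GC offsets). Of 23 tested, 0 were higher and 2 lower (8.7%, against 10% of all genes), and 0 passed with GC offsets. Actn3, the fast-fibre alpha-actinin, was at 533, 605 and 498 CPM in wild type and 391, 291 and 236 CPM in knockout (log2 fold change -0.83 ± 0.17 SE, adjusted p = 0.0046). The other was Eno3, the muscle enolase, at 119, 190 and 124 CPM in wild type and 77.6, 71.8 and 50.9 CPM in knockout (log2 fold change -1.10 ± 0.22 SE, adjusted p = 0.00394). Neither passed with GC offsets (-0.43, adjusted p = 0.152, and -0.78, adjusted p = 0.0508).

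Of 59 tested genes of mitosis, 17 were lower in knockout and 1 was higher. Their transcription is switched on late in the cell cycle, in part through the CHR element, a short promoter motif bound by the DREAM and MuvB complexes, while genes of DNA replication are switched on earlier through E2F sites. Promoters of 3 lower mitosis genes are printed because these genes fell in both fits and each window holds the CHR letters TTTGAA. They run from 250 bases before to 50 after the start of the gene (RefSeq, build GRCm38.p6, another build than the mm9 of the count files), 5′ to 3′ on the strand of the gene, with the CHR letters, read on either strand, in capitals. Plk1 lies at chr7:122159185-122159484 on the + strand, with the element at base 31 from the start. Cdca8 lies at chr4:124936868-124937167 on the - strand, with the element at base 14. Kif22 lies at chr7:127042371-127042670 on the - strand, with the elements beginning 215 and 17 bases before the start.
Plk1: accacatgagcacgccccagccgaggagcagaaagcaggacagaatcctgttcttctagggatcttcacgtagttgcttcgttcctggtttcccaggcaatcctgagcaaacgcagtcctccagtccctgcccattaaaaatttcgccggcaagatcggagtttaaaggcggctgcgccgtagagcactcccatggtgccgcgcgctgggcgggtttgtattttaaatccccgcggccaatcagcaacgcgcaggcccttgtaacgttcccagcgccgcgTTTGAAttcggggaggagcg
Cdca8: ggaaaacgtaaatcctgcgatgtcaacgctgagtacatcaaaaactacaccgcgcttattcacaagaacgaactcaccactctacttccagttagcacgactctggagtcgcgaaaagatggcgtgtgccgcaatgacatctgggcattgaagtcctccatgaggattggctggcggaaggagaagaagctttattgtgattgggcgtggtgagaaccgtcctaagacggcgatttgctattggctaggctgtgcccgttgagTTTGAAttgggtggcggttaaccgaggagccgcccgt
Kif22: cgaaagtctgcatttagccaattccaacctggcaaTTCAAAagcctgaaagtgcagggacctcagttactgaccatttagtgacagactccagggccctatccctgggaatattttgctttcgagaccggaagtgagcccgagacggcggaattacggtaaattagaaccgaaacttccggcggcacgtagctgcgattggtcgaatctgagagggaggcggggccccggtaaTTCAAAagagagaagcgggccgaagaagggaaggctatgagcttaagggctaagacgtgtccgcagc

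The mitosis counts were 28.8% lower and 1.69% higher, against 10% and 10.9% of all genes. The median was -0.49 without and with GC offsets, against -0.02 and 0.03 over all genes, but 4 genes passed with the offsets. The mean log2 CPM of the list was 4.87, 5.01 and 4.75 in wild type and 4.41, 4.81 and 4.08 in knockout. Knockout replicate 2 thus lay within the wild-type range. Without wild-type replicate 2 the counts were 11 lower without offsets and 0 with them. Without knockout replicate 3, 12 were lower and 6 higher without offsets. Among the kinases and regulators, Plk1, which drives spindle assembly and exit from mitosis, was at 21.2, 24.2 and 16.9 CPM in wild type and 6.96, 7.06 and 3.48 CPM in knockout (log2 fold change -1.78 ± 0.29 SE, adjusted p = 0.00168; -1.39 with GC offsets, adjusted p = 0.0187). Foxm1, the transcription factor of the mitotic programme, was at 52.9, 47.5 and 45.1 CPM in wild type and 23.3, 23 and 21.4 CPM in knockout (log2 fold change -1.10 ± 0.15 SE, adjusted p = 0.000908; -0.79 with GC offsets, adjusted p = 0.0151). Among spindle genes, Cdca8, the borealin subunit of the chromosomal passenger complex, was at 23.3, 26.2 and 18.2 CPM in wild type and 9.7, 10.3 and 5.71 CPM in knockout (log2 fold change -1.36 ± 0.27 SE, adjusted p = 0.00374; -1.39 with GC offsets, adjusted p = 0.0132). The chromokinesin gene Kif22 was at 31.3, 37.3 and 27.7 CPM in wild type and 13.6, 13.3 and 9.94 CPM in knockout (log2 fold change -1.36 ± 0.23 SE, adjusted p = 0.00197; -1.33 with GC offsets, adjusted p = 0.00962). For these 4 genes the lowest wild-type library lay above the highest knockout library. Kif18b and Troap, which act on spindle microtubules, fell by 1.15 ± 0.23 and 1.54 ± 0.33 (SE) but did not pass with GC offsets (adjusted p = 0.0601 and 0.0578).

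Of the replication genes, 13 of 51 were lower and 1 higher (25.5% and 1.96%), 6 and 0 with GC offsets, with medians of -0.33 and -0.34. The mean log2 CPM of the list was 4.80, 4.96 and 4.85 in wild type and 4.46, 4.78 and 4.38 in knockout, with knockout replicate 2 just below wild type. Fewer passed without wild-type replicate 2 (5), wild-type replicate 3 (7), knockout replicate 1 (8) or knockout replicate 3 (8). Among the S-phase regulators, 7 of 17 were lower (41.2%, against 10% of all genes), and 3 with GC offsets. E2f1, an activator of S-phase genes, was at 21.3, 26.7 and 18.2 CPM in wild type and 9.12, 7.83 and 6.71 CPM in knockout (log2 fold change -1.46 ± 0.25 SE, adjusted p = 0.0021; -1.02 with GC offsets, adjusted p = 0.0294). E2f7, a repressor of the same sites, was at 28, 27.5 and 25.5 CPM in wild type and 13.1, 14.4 and 10.2 CPM in knockout (log2 fold change -1.09 ± 0.21 SE, adjusted p = 0.00382; -1.01 with GC offsets, adjusted p = 0.0203). Ccne1, cyclin E1, was at 30.6, 34.7 and 32.2 CPM in wild type and 17.9, 19.4 and 12.4 CPM in knockout (log2 fold change -0.95 ± 0.23 SE, adjusted p = 0.0115) and missed the threshold with GC offsets (adjusted p = 0.0867). Of the licensing and fork genes 6 of 34 were lower (17.6%). Among them was Chaf1a, a histone chaperone of the fork (-0.96 ± 0.21, SE, adjusted p = 0.00722, and 0.0591 with GC offsets).

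**Figure D4:**
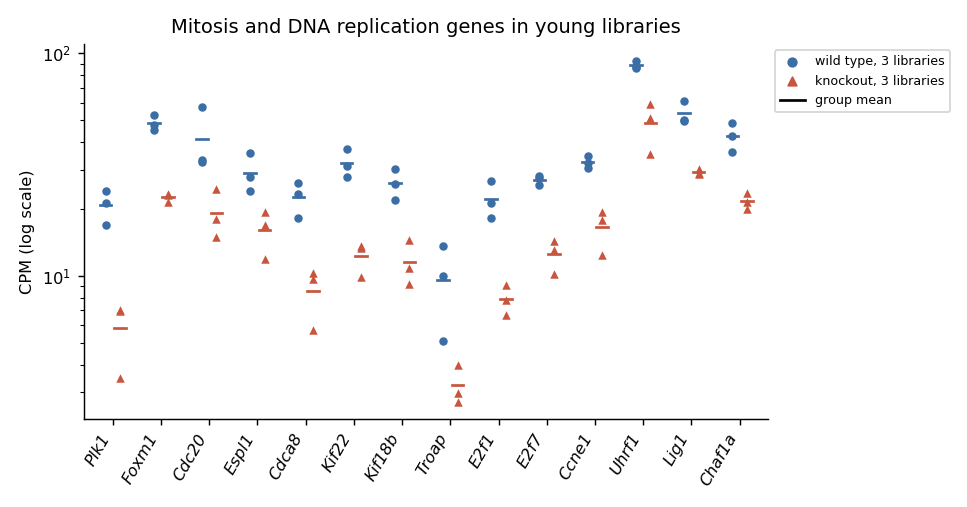
Level of 14 mitosis and DNA replication genes in CPM on a log scale (vertical axis) in each young library, wild type as blue circles and knockout as red triangles, with bars at the group means. Knockout means lie below wild-type means for each gene shown, all of which passed the threshold without GC offsets. Cdc20, Espl1, Kif18b, Troap, Ccne1, Uhrf1, Lig1 and Chaf1a did not pass with GC offsets. Without offsets, Uhrf1 kept its call in 1 of the 6 fits without 1 young library, and Cdc20, Espl1 and Lig1 in 5.

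The printed elements are common in mitosis promoters whether or not the gene changed. CHR letters were found in 31 of 48 tested mitosis genes with a promoter in the RefSeq table (64.6%) and in 10 of the 13 lower ones (76.9%), against 14% of 9558 tested genes, 13.3% of higher and 12% of lower genes. E2F letters (TTTCCCGC, TTTGGCGC, TTTCGCGC or TTTGCCGC on either strand) were found in 19 of 41 replication genes (46.3%), against 4.59% of all, 4% of higher and 5.82% of lower genes, and in 4 of the 13 lower replication genes. A match of letters is a description of the window and not a bound site.

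Histone genes, most of which are transcribed in S phase without a poly(A) tail and were kept by the total RNA libraries, had 9 of 56 members lower and 0 higher. These shares were 16.1% and 0%, against 10% and 10.9% of all genes, and the median was -0.52. The mean log2 CPM of the list was 4.74, 5.42 and 4.95 in wild type and 4.23, 4.95 and 4.31 in knockout, ranges that overlapped. With GC offsets 4 were lower and the median was -0.21, and with offsets for GC content and length 5 were lower and 4 higher. The count was 5 without wild-type replicate 2, 5 without knockout replicate 1 and 15 without knockout replicate 2. Hist2h4 was at 59.6, 89.6 and 66.1 CPM in wild type and 20, 22.6 and 22.6 CPM in knockout (log2 fold change -1.72 ± 0.24 SE, adjusted p = 0.000908; -1.59 with GC offsets, adjusted p = 0.00489). Hist2h3b at 27.5, 45.1 and 32 CPM in wild type and 10.8, 11.6 and 15.7 CPM in knockout (log2 fold change -1.47 ± 0.28 SE, adjusted p = 0.00309; -1.0 with GC offsets, adjusted p = 0.0146) also passed in both fits. The linker histone gene H1fx was at 10.5, 17 and 9.06 CPM in wild type and 3.32, 2.95 and 2.48 CPM in knockout (log2 fold change -2.01 ± 0.29 SE, adjusted p = 0.00104; -1.52 with GC offsets, adjusted p = 0.0132). Of 13 H2A and 15 H2B genes 0 passed in either direction. Near-identical histone genes can share reads, so the values of single members are uncertain.

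Genes that restrain the cell cycle moved both ways, 7 of 30 higher and 6 lower (2 and 1 with GC offsets). Without offsets these shares were 23.3% and 20%, against 10.9% and 10% of all genes. Higher counts were 3 without wild-type replicate 2, wild-type replicate 3 or knockout replicate 2. Rb1, the retinoblastoma protein that holds E2F factors inactive, was at 57.4, 38.7 and 45.8 CPM in wild type and 137, 143 and 84 CPM in knockout (log2 fold change 1.36 ± 0.20 SE, adjusted p = 0.00118; 0.88 with GC offsets, adjusted p = 0.0154). Trp53inp1, a p53 target that promotes arrest, was at 39.1, 33.2 and 31.9 CPM in wild type and 90.3, 130 and 76 CPM in knockout (log2 fold change 1.51 ± 0.19 SE, adjusted p = 0.000615; 0.85 with GC offsets, adjusted p = 0.0096). Trp53, which encodes p53, was at 104, 110 and 106 CPM in wild type and 48.7, 27.7 and 59.4 CPM in knockout, lower in every knockout library (log2 fold change -1.24 ± 0.24 SE, adjusted p = 0.00363; -1.01 with GC offsets, adjusted p = 0.02). Its target Cdkn1a, the inhibitor p21, fell by 0.92 ± 0.20 (SE, adjusted p = 0.00747) and narrowly missed the threshold with GC offsets (adjusted p = 0.0522).

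Genes of the circadian clock formed the list with the largest share of higher members. In the clock, the activators Clock and Arntl (Bmal1) switch on Per and Cry genes, whose proteins repress them, while Nr1d1 and Nr1d2 (Rev-erb) repress Arntl. The factors Tef, Hlf and Dbp act on D-box sites of output genes. The promoters of Per3 and Tef are printed because these genes rose with and without GC offsets and their windows hold, in capitals, letters of the D-box (TTATGTAA) and of the E-box (CACGTG), motifs searched after the values were seen. Per3 lies at chr4:151044616-151044915 on the - strand, with D-box letters beginning 205 and 158 bases before the start. Tef lies at chr15:81802423-81802722 on the + strand, with E-box letters beginning 127 bases before the start of the first of 2 promoters in the table.
Per3: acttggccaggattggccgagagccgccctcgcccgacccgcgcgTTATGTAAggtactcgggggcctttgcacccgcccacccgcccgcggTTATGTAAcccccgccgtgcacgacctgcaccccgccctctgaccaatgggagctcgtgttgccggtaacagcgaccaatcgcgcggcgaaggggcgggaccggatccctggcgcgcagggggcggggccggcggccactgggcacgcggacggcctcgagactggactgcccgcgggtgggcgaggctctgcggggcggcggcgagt
Tef: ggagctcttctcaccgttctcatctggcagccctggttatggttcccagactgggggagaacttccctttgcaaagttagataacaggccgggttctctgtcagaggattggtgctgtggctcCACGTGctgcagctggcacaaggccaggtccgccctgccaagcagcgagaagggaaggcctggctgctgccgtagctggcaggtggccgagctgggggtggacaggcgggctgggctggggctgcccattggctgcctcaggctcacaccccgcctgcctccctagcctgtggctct
D-box letters were present in 0.638% of the 9558 promoters and in 1 of 16 clock genes, and E-box letters in 11.7% and in 4 of 16.

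Of 20 tested clock genes, 6 were higher and 2 lower, and 5 and 2 with GC offsets. Without offsets these shares were 30% and 10%, against 10.9% and 10% of all genes. Per2 was at 55.4, 50.5 and 44.1 CPM in wild type and 112, 85.5 and 169 CPM in knockout (log2 fold change 1.29 ± 0.20 SE, adjusted p = 0.00147; 1.56 with GC offsets, adjusted p = 0.00347). Per3 was at 15.7, 14.2 and 11.9 CPM in wild type and 43, 32.5 and 44.2 CPM in knockout (log2 fold change 1.51 ± 0.21 SE, adjusted p = 0.000908; 1.71 with GC offsets, adjusted p = 0.00347). Nr1d2 was at 77, 65 and 78.3 CPM in wild type and 170, 170 and 180 CPM in knockout (log2 fold change 1.24 ± 0.12 SE, adjusted p = 0.00027; 0.81 with GC offsets, adjusted p = 0.00412). Tef, named after its values were seen like the next 3 genes, was at 105, 99.5 and 99.7 CPM in wild type and 189, 206 and 300 CPM in knockout (log2 fold change 1.19 ± 0.18 SE, adjusted p = 0.00108; 1.41 with GC offsets, adjusted p = 0.00347). Clock was at 134, 96 and 131 CPM in wild type and 202, 202 and 158 CPM in knockout (log2 fold change 0.64 ± 0.15 SE, adjusted p = 0.00901) and had 0.15 with GC offsets, adjusted p = 0.519. In the other direction, Nr1d1 was at 121, 110 and 117 CPM in wild type and 66.8, 44.5 and 66.8 CPM in knockout (log2 fold change -0.97 ± 0.17 SE, adjusted p = 0.00256; -0.59 with GC offsets, adjusted p = 0.045). Arntl was at 37.8, 44.6 and 53.3 CPM in wild type and 25.9, 30.8 and 30.3 CPM in knockout (log2 fold change -0.64 ± 0.16 SE, adjusted p = 0.0135; -0.67 with GC offsets, adjusted p = 0.0292), and it missed the threshold without wild-type replicate 3 (-0.51). The groups did not overlap for any of these 7 genes. Hlf was high in 1 library, at 1.26, 1.54 and 1.28 CPM in wild type and 2.16, 3.34 and 15.7 CPM in knockout (log2 fold change 2.30 ± 0.71 SE, adjusted p = 0.0378), and at 1.05 it missed the threshold without knockout replicate 3. It also missed it without each of the wild-type libraries (2.24 to 2.37) and with GC offsets (2.09, adjusted p = 0.0941).

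Knockout replicate 3 stood apart in the clock list. The mean log2 CPM of the list was 5.20 to 5.22 in the wild-type libraries and 5.19, 5.17 and 6.08 in knockout replicates 1 to 3. Without replicate 3, 5 clock genes were higher and 5 lower, and the median over the list was -0.12 in place of 0.29.

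**Figure D5:**
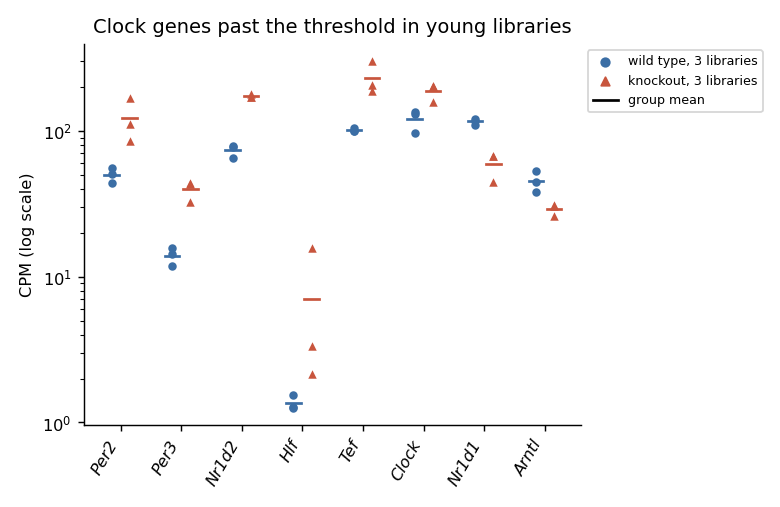
Level of the 8 clock genes that passed the threshold, in CPM on a log scale (vertical axis) in each young library, wild type as blue circles and knockout as red triangles, with bars at the group means. The 2 genotypes do not overlap for any of the 8, and the highest knockout point of Hlf, 15.7 CPM, is replicate 3.

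The same library stood apart in the immediate early genes, transcription factors of the FOS, JUN and EGR families that respond within minutes to serum, stress and tissue handling. The mean log2 CPM of the list was 7.31 to 7.54 in wild type, 6.61 and 6.85 in knockout replicates 1 and 2 and 8.25 in replicate 3. Replicate 3 was above every wild-type library in 24 of 31 genes, while replicates 1 and 2 were both below every wild-type library in 22. Over all libraries 1 gene was higher and 4 lower (3.23% and 12.9%, against 10.9% and 10% of all genes). Without replicate 3 the counts were 0 and 13. Egr3 was lower in all 3 knockout libraries, at 52.6, 39 and 40.3 CPM in wild type and 17.1, 11.2 and 22.6 CPM in knockout (log2 fold change -1.40 ± 0.25 SE, adjusted p = 0.00258; -1.26 with GC offsets, adjusted p = 0.0119). Fos and Egr1, named after their values were seen, did not pass. Fos was at 668, 924 and 487 CPM in wild type and 459, 743 and 1301 CPM in knockout (adjusted p = 0.648). Egr1 was at 764, 773 and 542 CPM in wild type and 279, 235 and 722 CPM in knockout (adjusted p = 0.189). Without replicate 3, Egr1 was lower (-1.38, adjusted p = 0.0012).

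FoxO factors hold cells at rest and raise genes of growth arrest. Of 25 FoxO and atrophy genes 3 were higher and 2 lower, and 4 and 0 with GC offsets. Without offsets these shares were 12% and 8%, near the 10.9% and 10% of all genes, so the list as a whole did not stand out. Arrdc3, given above, and Txnip, which limits glucose uptake, were higher in all knockout libraries. Txnip was at 136, 168 and 133 CPM in wild type and 243, 274 and 249 CPM in knockout (log2 fold change 0.81 ± 0.14 SE, adjusted p = 0.00203; 0.79 with GC offsets, adjusted p = 0.00962). Pik3ip1, an inhibitor of PI3 kinase, was at 18.5, 17 and 18.1 CPM in wild type and 27.8, 29.8 and 24.1 CPM in knockout (log2 fold change 0.61 ± 0.15 SE, adjusted p = 0.0129; 0.83 with GC offsets, adjusted p = 0.0124), and it missed the threshold without wild-type replicate 2 (0.57). In the other direction, Foxo6, itself a FoxO factor, was lower (log2 fold change -0.92 ± 0.29 SE, adjusted p = 0.0362). It did not pass with GC offsets (-0.47, adjusted p = 0.305) and kept its call in 2 of the 6 fits without 1 young library. Without knockout replicate 3 the list held 5 higher and 4 lower genes.

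In the Wnt pathway, 3 of 55 genes were higher and 9 lower, and with GC offsets 2 and 5. Without offsets these shares were 5.45% and 16.4%, against 10.9% and 10% of all genes. The lower count was 5 without knockout replicate 2. With GC offsets it was 0 without knockout replicate 2, 1 without wild-type replicate 2 and 2 without wild-type replicates 1 or 3. The members that fell included the co-activators of beta-catenin Bcl9 at 51.7, 40.4 and 40.9 CPM in wild type and 22.1, 12.7 and 15.7 CPM in knockout (log2 fold change -1.39 ± 0.20 SE, adjusted p = 0.00101; -1.05 with GC offsets, adjusted p = 0.0123). Its paralog Bcl9l was at 79.8, 66.5 and 47.2 CPM in wild type and 25.7, 14.4 and 25.1 CPM in knockout (log2 fold change -1.57 ± 0.24 SE, adjusted p = 0.00131; -1.13 with GC offsets, adjusted p = 0.0132). Tcf7l1, which binds the DNA sites of the pathway as a repressor, was at 19.3, 16.8 and 10.8 CPM in wild type and 4.89, 1.41 and 7.7 CPM in knockout (log2 fold change -1.81 ± 0.42 SE, adjusted p = 0.0105; -1.39 with GC offsets, adjusted p = 0.0465). Vangl2, of the planar polarity branch, fell by 0.90 ± 0.17 (-0.66 with GC offsets, adjusted p = 0.0354), and the R-spondin receptor gene Lgr4 rose by 0.94 ± 0.23 (0.80 with GC offsets, adjusted p = 0.0442). Of 16 ligands and secreted antagonists 0 passed. In the Notch pathway 3 of 30 genes were higher and 4 lower (10% and 13.3%), near the shares over all genes. With GC offsets Heyl was the 1 gene called. When no offsets were used and wild-type replicate 2 or knockout replicate 2 was left out, the counts were 1 and 2.

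Of 12 tested receptors of the TGF-beta and BMP family, 3 were higher and 1 lower, and with GC offsets 2 and 0. Without offsets these shares were 25% and 8.33%, against 10.9% and 10% of all genes. Over all 51 genes of the list they were 11.8% and 5.88%. Tgfbr1, the type I receptor of TGF-beta, was at 96.7, 79.3 and 90.4 CPM in wild type and 165, 225 and 195 CPM in knockout (log2 fold change 1.13 ± 0.15 SE, adjusted p = 0.000723; 0.64 with GC offsets, adjusted p = 0.0124). Bmpr1a, a type I BMP receptor, was at 152, 129 and 151 CPM in wild type and 246, 302 and 244 CPM in knockout (log2 fold change 0.88 ± 0.12 SE, adjusted p = 0.000931; 0.41 with GC offsets, adjusted p = 0.0345). The activin receptor gene Acvr2a rose by 0.79 ± 0.13 but did not pass with offsets (adjusted p = 0.221). Of 18 SMADs and targets 3 were higher and 0 lower (16.7% and 0%). Among them was Smurf2, a ubiquitin ligase for these receptors, at 102, 84.9 and 109 CPM in wild type and 151, 180 and 156 CPM in knockout (log2 fold change 0.71 ± 0.12 SE, adjusted p = 0.00214; 0.60 with GC offsets, adjusted p = 0.0125). Another was Smad5 (0.67 ± 0.14; 0.42 with GC offsets, adjusted p = 0.0773). Of 21 ligands and antagonists 0 were higher and 2 lower (0% and 9.52%). With GC offsets 4 genes of all 51 were higher, 0 without wild-type replicate 2 and 2 without wild-type replicate 3 or knockout replicate 2.

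Cytokine signalling through JAK and STAT proteins had 10 of 42 genes higher and 3 lower, and 3 and 2 with GC offsets. Without offsets these shares were 23.8% and 7.14%, against 10.9% and 10% of all genes. Without wild-type replicate 2 the counts were 3 and 3, and without wild-type replicate 3 they were 6 and 3. With offsets the higher count was 1 without any 1 wild-type library or knockout replicate 2. The kinase gene Jak2 was at 108, 67 and 98.5 CPM in wild type and 186, 183 and 179 CPM in knockout and passed in every fit without 1 library, with and without offsets (log2 fold change 1.0 ± 0.15 SE, adjusted p = 0.00116; 0.73 with GC offsets, adjusted p = 0.0122). Il13ra1, a receptor chain for interleukins 4 and 13, was at 85.1, 70.5 and 82.7 CPM in wild type and 200, 248 and 95.2 CPM in knockout (log2 fold change 1.19 ± 0.25 SE, adjusted p = 0.00684) and missed the threshold with offsets (adjusted p = 0.0722). Pias3, an inhibitor of STAT3, fell by 1.05 ± 0.20 (-0.74 with GC offsets, adjusted p = 0.0445).

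Of 35 interferon-stimulated genes 7 were lower and 1 higher, and 3 and 0 with GC offsets. Without offsets these shares were 20% and 2.86%, against 10% and 10.9% of all genes. Oasl2, of the antiviral OAS family, was at 53.2, 42.6 and 47.9 CPM in wild type and 26, 23.7 and 19.4 CPM in knockout (log2 fold change -1.05 ± 0.18 SE, adjusted p = 0.00192; -0.99 with GC offsets, adjusted p = 0.0096). Isg15, a ubiquitin-like modifier, was at 14.9, 12.3 and 16 CPM in wild type and 7.54, 4.49 and 5.22 CPM in knockout (log2 fold change -1.31 ± 0.29 SE, adjusted p = 0.00752; -1.08 with GC offsets, adjusted p = 0.0407). Stat2, a transducer of interferon signals, was at 83.4, 59.4 and 69 CPM in wild type and 45.2, 38.5 and 42 CPM in knockout (log2 fold change -0.76 ± 0.16 SE, adjusted p = 0.00514; -0.58 with GC offsets, adjusted p = 0.0423). With offsets the lower count was 1 without each wild-type library and without knockout replicate 2.

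Of growth factor genes and their feedback inhibitors, 3 of 31 were higher and 2 lower (9.68% and 6.45%, against 10.9% and 10% of all genes). Without wild-type replicates 2 or 3 or knockout replicate 2, 1 was higher. Igf2 had the largest change, with levels given above (log2 fold change -1.81 ± 0.39 SE, adjusted p = 0.00849; -1.45 with GC offsets, adjusted p = 0.0485). Spred1, an inhibitor of Ras signalling, was at 206, 135 and 218 CPM in wild type and 369, 452 and 419 CPM in knockout (log2 fold change 1.15 ± 0.18 SE, adjusted p = 0.00146; 0.68 with GC offsets, adjusted p = 0.0237). Of 6 IGF-binding proteins 3 were lower (50%, against 10% of all genes), Igfbp2 among them, and 1 without wild-type replicate 3 or knockout replicate 2. With GC offsets 1 of the 6 was lower. Of 20 imprinted genes, which include Igf2, 3 were lower and 1 higher (15% and 5%). Gnas, the stimulatory G protein alpha subunit, was at 116, 170 and 154 CPM in wild type and 77.2, 66.4 and 89.7 CPM in knockout (log2 fold change -0.92 ± 0.16 SE, adjusted p = 0.00236; -0.51 with GC offsets, adjusted p = 0.0439).

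Extracellular matrix genes had 14 of 81 members lower and 3 higher, with a median of -0.24. These shares were 17.3% and 3.7%, against 10% and 10.9% of all genes. With GC offsets 5 were lower and 1 higher and the median was 0.01. The lower count was 8 without wild-type replicate 1 and 7 without knockout replicate 2, and with offsets it was 1 or 2 without any library other than knockout replicate 1. Beside Eln, both fits called Sparc, a collagen-binding glycoprotein of satellite cell niches, at 3000, 3139 and 3138 CPM in wild type and 1714, 1785 and 1591 CPM in knockout (log2 fold change -0.87 ± 0.14 SE, adjusted p = 0.00189; -0.66 with GC offsets, adjusted p = 0.0272). They also called Bgn, the proteoglycan biglycan, at 1517, 1156 and 1099 CPM in wild type and 690, 455 and 352 CPM in knockout (log2 fold change -1.33 ± 0.28 SE, adjusted p = 0.00601; -1.18 with GC offsets, adjusted p = 0.034). Collagen genes Col5a3, Col4a2 and Col6a2 fell by 1.02 ± 0.16, 0.89 ± 0.16 and 0.72 ± 0.14 (SE), with adjusted p of 0.0758, 0.14 and 0.109 with offsets. In the other direction, the metalloproteinase gene Mmp19 was at 6.5, 6.33 and 8.74 CPM in wild type and 19, 10.3 and 29.8 CPM in knockout (log2 fold change 1.42 ± 0.32 SE, adjusted p = 0.00786; 1.43 with GC offsets, adjusted p = 0.0195). Summed fibroblast markers, which share collagens with this list, were 10511 to 12574 CPM in wild type and 8461 to 8743 CPM in knockout. Taken gene by gene they were not lower, with a median of 0.31 over 20 genes (0.41 with GC offsets), 11 positive and 9 negative. Their mean log2 CPM was 4.59, 4.48 and 4.29 in wild type and 4.04, 4.63 and 5.33 in knockout replicates 1 to 3. The part of fibroblasts in the matrix genes was not tested.

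Hox genes and their TALE partners had 4 of 28 members lower and 0 higher, and 5 and 1 with GC offsets. Without offsets these shares were 14.3% and 0%, against 10% and 10.9% of all genes. Of 10 tested genes of the Hoxa cluster 0 passed in either direction, with or without offsets. Hoxc11 was at 11.2, 13.9 and 14.1 CPM in wild type and 6.63, 5.01 and 6.71 CPM in knockout (log2 fold change -1.09 ± 0.22 SE, adjusted p = 0.00407; -0.75 with GC offsets, adjusted p = 0.0458). Hoxc10 was at 27.2, 29.6 and 21.1 CPM in wild type and 12.8, 8.99 and 19.4 CPM in knockout (log2 fold change -0.94 ± 0.24 SE, adjusted p = 0.0154; -0.83 with GC offsets, adjusted p = 0.0439), and it missed the threshold without wild-type replicate 2 (-0.84) and without knockout replicate 2 (-0.65). The list's lower count was 1 without each of these libraries, and 0 with GC offsets.

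Trithorax and Polycomb genes moved both ways, 7 of 42 higher and 6 lower, and 1 and 3 with GC offsets. Without offsets these shares were 16.7% and 14.3%, against 10.9% and 10% of all genes. The counts were 4 and 4 without wild-type replicate 2 and 5 and 2 without knockout replicate 2. Suz12, a core subunit of Polycomb repressive complex 2, was at 61.1, 49.1 and 61.3 CPM in wild type and 113, 115 and 92.4 CPM in knockout (log2 fold change 0.90 ± 0.14 SE, adjusted p = 0.00119; 0.46 with GC offsets, adjusted p = 0.0435). Setd1a, a methyltransferase of histone H3 lysine 4, was at 151, 118 and 122 CPM in wild type and 73.9, 47.2 and 69.1 CPM in knockout (log2 fold change -1.04 ± 0.17 SE, adjusted p = 0.00147; -0.67 with GC offsets, adjusted p = 0.025). Pcgf2, of Polycomb complex 1, was at 14.4, 11.3 and 12.7 CPM in wild type and 7.21, 3.85 and 5.47 CPM in knockout (log2 fold change -1.21 ± 0.24 SE, adjusted p = 0.0043; -0.93 with GC offsets, adjusted p = 0.038). Among other chromatin genes 4 of 34 were higher and 5 lower (11.8% and 14.7%). The counts were 2 higher without wild-type replicate 2 and 8 lower without knockout replicate 1. The deacetylase genes Sirt1 and Hdac7 went opposite ways. Sirt1 was at 38.7, 35.8 and 47.4 CPM in wild type and 69.5, 92.3 and 99.1 CPM in knockout (log2 fold change 1.09 ± 0.16 SE, adjusted p = 0.00108; 0.80 with GC offsets, adjusted p = 0.0114). Hdac7 was at 54.9, 58.3 and 54.4 CPM in wild type and 28.4, 14.4 and 21.4 CPM in knockout (log2 fold change -1.38 ± 0.20 SE, adjusted p = 0.00105; -0.92 with GC offsets, adjusted p = 0.0187).

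Genes of the ribosome and its assembly had 12 of 95 members higher and 4 lower, 12.6% and 4.21% against 10.9% and 10% of all genes, with a median of 0.02. With GC offsets 10 were higher and 1 lower, 10.5% and 1.05% against 3.34% and 3.26%. Without knockout replicate 3 the counts without offsets were 13 and 11, and the lower count was 6 without wild-type replicate 1 and 1 or 2 without the other libraries. Higher counts without offsets were 7 without wild-type replicate 1 and 8 without knockout replicate 2, and with offsets they were 5, 3, 4 and 2 without wild-type replicates 1, 2 and 3 and knockout replicate 2. Rpl15 was at 18.3, 19.7 and 20.1 CPM in wild type and 48.8, 76.1 and 46.2 CPM in knockout (log2 fold change 1.56 ± 0.19 SE, adjusted p = 0.00057; 1.21 with GC offsets, adjusted p = 0.00412). Rpl39 rose by 1.05 ± 0.21 and Rps6 by 0.86 ± 0.21 (SE), and all 3 passed with offsets (1.21, 1.04 and 1.30). Rpl10a fell by 0.85 ± 0.16 (-0.80 with GC offsets, adjusted p = 0.0125). Rrn3, an initiation factor of RNA polymerase I, rose by 0.69 ± 0.15 (0.56 with GC offsets, adjusted p = 0.0384). Ribosomal protein genes have many near-identical copies elsewhere in the genome, so reads shared with them make these values uncertain.

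Genes of mitochondrial translation had 3 of 54 members higher, Lars2 among them, and 7 lower (1 and 4 with GC offsets). Without offsets these shares were 5.56% and 13%, against 10.9% and 10% of all genes. The lower count was 4 without wild-type replicates 2 or 3 and 3 without knockout replicate 2, and with offsets 1 or 2 without these libraries. Mrpl12, a protein of the mitochondrial ribosome, was at 34.9, 43 and 52.2 CPM in wild type and 15.2, 12.2 and 15.4 CPM in knockout, with no overlap of the groups (log2 fold change -1.61 ± 0.19 SE, adjusted p = 0.00057; -1.25 with GC offsets, adjusted p = 0.00479). Mrpl37 and Mrps5 fell by 0.80 ± 0.14 and 0.73 ± 0.18 (SE) and passed with offsets. Respiratory chain genes had 2 of 76 higher and 9 lower (2.63% and 11.8%), or 1 and 3 with offsets. Lower counts without offsets were 3 without wild-type replicates 2 or 3 or knockout replicates 1 or 2, and 15 without wild-type replicate 1. Cyc1, cytochrome c1, fell by 0.74 ± 0.14 and did not pass with offsets (adjusted p = 0.252). Of 25 glycolysis genes 5 were lower and 1 higher (20% and 4%), and 3 were lower without wild-type replicate 2. Ldhb, a lactate dehydrogenase subunit, was at 18, 31.3 and 18.6 CPM in wild type and 5.55, 6.29 and 10.9 CPM in knockout (log2 fold change -1.62 ± 0.28 SE, adjusted p = 0.00227; -1.39 with GC offsets, adjusted p = 0.0115).

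Splicing genes had 6 of 44 members higher and 11 lower, and 2 and 6 with GC offsets. Without offsets these shares were 13.6% and 25%, against 10.9% and 10% of all genes. Subunits of the same complex, SF3, moved apart. Sf3b1 was at 476, 405 and 524 CPM in wild type and 784, 905 and 1049 CPM in knockout (log2 fold change 0.96 ± 0.15 SE, adjusted p = 0.00119; 0.56 with GC offsets, adjusted p = 0.0352). Sf3b4 was at 26.5, 31.3 and 26 CPM in wild type and 12.8, 14 and 16.6 CPM in knockout (log2 fold change -0.96 ± 0.16 SE, adjusted p = 0.00168; -0.59 with GC offsets, adjusted p = 0.0318). Their GC contents were 42.1% and 56.2%. Mbnl2, a muscle splicing regulator, rose by 0.74 ± 0.15 (0.77 with GC offsets, adjusted p = 0.00962). The lower count was 7 without wild-type replicate 2, 6 without wild-type replicate 3 and 4 without knockout replicate 2, and with offsets it was 0 without each of these 3 libraries. Of 31 proteasome subunits 1 was higher and 4 lower (3.23% and 12.9%), led by Psmd3 (-0.88 ± 0.14, and -0.55 with GC offsets, adjusted p = 0.0241). The lower count was 1 to 7 when 1 library was left out. Of 23 YAP and TEAD genes 4 were higher and 3 lower (17.4% and 13%). The TEAD cofactor Vgll2 was at 103, 117 and 134 CPM in wild type and 59, 48 and 52.7 CPM in knockout (log2 fold change -1.15 ± 0.18 SE, adjusted p = 0.00137; -0.68 with GC offsets, adjusted p = 0.0416).

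The remaining lists had the following higher and lower counts, against 10.9% and 10% of all genes. They were 2 and 2 of 24 heat shock genes (8.33% each way), 1 and 3 of 27 genes of the unfolded protein and integrated stress responses (3.7% and 11.1%), 1 and 1 of 29 antioxidant genes (3.45% each way) and 1 and 1 of 30 cholesterol genes (3.33% each way). They were 0 and 5 of 41 senescence-associated factors (0% and 12.2%), 1 and 3 of 19 integrins (5.26% and 15.8%) and 2 and 1 of 15 housekeeping genes (13.3% and 6.67%). Several of these counts moved when 1 library was left out. Without knockout replicate 1, 5 heat shock and 6 antioxidant genes were higher, and without knockout replicate 3, 6 antioxidant genes were lower. Without wild-type replicate 2, 0 genes of the stress responses passed, and without knockout replicate 2, 0 integrins did. Senescence-associated factors had 1 lower gene without knockout replicate 2 and 8 without knockout replicate 3. With GC offsets 3 cholesterol genes were higher and 0 integrins passed.

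Markers of other cell types were summed in each library as a measure of purity. Pericyte and smooth muscle genes were at 6136 to 7131 CPM in wild type and 4703 to 6659 CPM in knockout, tendon genes at 3238 to 4890 and 3364 to 4715 CPM, and endothelial genes at 91.7 to 119 and 77.3 to 125 CPM. These 3 ranges of sums overlapped, but the mean log2 CPM over the genes of a list, which weights each gene alike, did not for 2 of them. It was 4.04 to 4.71 in wild type and 4.97 to 5.74 in knockout for tendon genes. Of these, 15 of 18 had a positive log2 fold change (median 1.18, and 1.27 with GC offsets). Without overlap of the groups, 9 were higher and 1 lower, against 4828 of all 13540 genes in either direction. For endothelial genes the mean log2 CPM was 1.69 to 2.26 in wild type and 1.31 to 1.53 in knockout (median -0.45, and -0.33 with GC offsets). Macrophage genes were at 43.5 to 78.1 CPM in wild type and at 287, 39.5 and 41 CPM in knockout replicates 1 to 3. Schwann cell genes were at 1116 to 1259 CPM in wild type and adipocyte genes at 52 to 53.1 CPM, and both were highest in knockout replicate 3 (2041 and 108 CPM). Erythroid genes were at 122 to 263 CPM in wild type and 39 to 73.4 CPM in knockout, and neutrophil genes at 9.61 to 13.1 and 0.248 to 8.34 CPM, ranges that did not overlap, with Hba-a1, Hba-a2 and Csf3r at 0 in all 6. Lymphocyte genes summed to at most 2.49 CPM, with Cd3e and Cd3g at 0. Counts past the threshold were 2 higher of 22 macrophage genes, 3 lower of 4 erythroid genes, 1 lower each of 6 neutrophil, 15 endothelial, 17 pericyte and 15 Schwann cell genes, 2 each way of 20 fibroblast genes, 1 each way of 18 tendon genes and 0 of 4 adipocyte genes. The shares over all genes tested were 10.9% higher and 10% lower. Without knockout replicate 1, 0 macrophage and 4 tendon genes were higher, and without knockout replicate 3, 5 pericyte and 4 Schwann cell genes were lower. Erythroid calls fell to 0 without wild-type replicates 2 or 3 or knockout replicate 3. The part of these cells in the gene groups above was not tested.

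The same contrast in old mice, which shares no library with the young one but shares the estimate of spread, called 2265 genes (16.7%), 1289 higher and 976 lower. In both ages 1284 genes were called the same way (780 higher, 504 lower), 45.4% of the young calls and 56.7% of the old calls, and 6 were called with opposite signs. With GC offsets in both, 324 genes were called the same way, 36.2% of 894 young calls and 32.4% of 1000 old calls, and 1 was opposite. Old knockout replicates 2 and 3 had Xist at 17.1 and 34.9 CPM and Ddx3y at 125 and 151 CPM, unlike the other 4 old libraries and the 6 young ones, and the part of these libraries in the old values was not tested. All 8 clock genes called in young mice had the same sign in old mice, and 5 of them passed there, with Per3 at 1.56 ± 0.21 SE with adjusted p = 0.00158, Per2 at 1.44 ± 0.20 SE with adjusted p = 0.00181, Nr1d2 at 0.84 ± 0.12 SE with adjusted p = 0.00188, Tef at 0.92 ± 0.17 SE with adjusted p = 0.00593 and Nr1d1 at -1.20 ± 0.18 SE with adjusted p = 0.00206. Hlf at 0.89 ± 0.68 SE with adjusted p = 0.389, Clock at 0.31 ± 0.15 SE with adjusted p = 0.158 and Arntl at -0.24 ± 0.16 SE with adjusted p = 0.319 did not pass. Mef2d (-1.50 ± 0.14 SE with adjusted p = 0.000489) and Bcl9 (-1.46 ± 0.20 SE with adjusted p = 0.00167) also passed in old mice.

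The mitosis list had a median of 0.12 in old mice against -0.49 in young mice, the replication list 0.09 against -0.33 and the histone list 0.25 against -0.52. The old values were -0.64 ± 0.28 SE with adjusted p = 0.124 for Plk1, -0.24 ± 0.15 SE with adjusted p = 0.279 for Foxm1, -0.32 ± 0.25 SE with adjusted p = 0.405 for Cdca8 and -0.32 ± 0.22 SE with adjusted p = 0.347 for Kif22, and 0 of these 4 passed. The difference between ages in these genes, tested as an interaction, did not pass either (adjusted p from 0.296 for Foxm1 to 0.398 for Plk1), so the fall in young cells is not shown to differ from the change in old cells. The same held for Eln (-0.23 ± 0.39 SE with adjusted p = 0.71 in old mice, interaction adjusted p = 0.289), Arrdc3 (0.38 ± 0.20 SE with adjusted p = 0.194, interaction 0.242) and Txnip (0.01 ± 0.14 SE with adjusted p = 0.969, interaction 0.289). Pik3ip1, higher in young knockout, was lower in old knockout (-0.57 ± 0.15 SE with adjusted p = 0.024), among the 6 genes called with opposite signs. Its interaction did not pass (adjusted p = 0.235).

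Of 13540 genes, 2 passed the test of a difference between the ages, and 1316 had an unadjusted p under 0.05. DESeq2 called 58, and the count was 116 without knockout replicate 3 and 0 without each of the wild-type libraries, young or old, and without old knockout replicate 2. Ndn, an imprinted growth suppressor, was at 14.8, 14.2 and 15.7 CPM in young wild type and 9.53, 10.5 and 14.2 CPM in young knockout, a change that did not pass (adjusted p = 0.185). In old mice it was at 4.55, 4.87 and 4.9 CPM in wild type and 15, 24.6 and 23.2 CPM in knockout. The young effect minus the old effect was -2.54 ± 0.30 (SE, adjusted p = 0.0131). Il1b, the inflammatory cytokine interleukin 1 beta, was at 1.26, 0.617 and 1.04 CPM in wild type and 4.48, 1.8 and 0.745 CPM in knockout in young mice. In old mice it was at 10.3, 9.54 and 11.4 CPM in wild type and 0.901, 0.535 and 0.872 CPM in knockout, and the difference of effects was 5.15 ± 0.71 (SE, adjusted p = 0.0339). The highest young value was that of knockout replicate 1, the library with the highest macrophage sum, and the part of macrophages in it was not tested.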

How the data were processed

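RNA of hindlimb satellite cells was sequenced as total RNA libraries depleted of ribosomal RNA, per the labels' protocols. The authors deposited raw counts of reads per gene for each library. The submitters' processing notes name TopHat, HTSeq and DESeq2 and the mouse build mm9, without versions. Neither labels nor notes say whether counting used strand, so reads of overlapping antisense genes cannot be told apart. Rows for reads outside genes, ambiguous or unaligned reads were left out of library sizes.

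Counts of all 12 libraries were fitted with edgeR 4.0.16 in R 4.3.3 (filterByExpr, trimmed-mean scaling, robust quasi-likelihood F test, 1 mean per group, Benjamini-Hochberg adjustment over 13540 genes, threshold 0.05), and the contrast was young knockout minus young wild type. Standard errors are the log2 fold change divided by the square root of F. GC offsets came from a natural spline with 5 degrees of freedom, fitted per library on the GC content of each gene's longest GENCODE M21 transcript, matched by symbol for 92.3% of 22310 symbols. DESeq2 1.42.0, limma 3.58.1 (voom), other scalings, filters, a 2-fold minimum, length offsets, a replicate block and fits without 1 library were alternatives. The steps were tested on simulated counts. Not every pair of same-numbered libraries deviated together, so libraries were not paired by number. Replicates are separate samples in the labels and were used as given.

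Genes named are Hoxa9, Lars2, Ttr, Pax7, Myod1, Myog, Myf5 and Heyl, the 15 largest changes in each direction among genes above a mean log2 CPM of 1 that passed with and without GC offsets and did not overlap between groups, up to 4 called members per role of each list (otherwise 2 of the highest level), and genes with the smallest interaction p. Of the 30 leading RNAs 1, which is listed by an identifier alone, is drawn but not named. Not every gene the rule names is printed. Members and lists were chosen with earlier results of these data known. Promoter sequences are from RefSeq (GRCm38.p6).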

Additional observations from a re-analysis of the deposited data

Results flagged for a closer look

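The knockout effect differed between young and old mice in the test of the difference itself for 2 genes. Il1b had a young effect minus old effect of 5.15 ± 0.71 on the log2 scale (SE, edgeR adjusted p = 0.0339), and its old wild-type libraries lay above the other 9. The call was lost without any 1 wild-type library and without old knockout replicates 2 or 3, with adjusted p between 0.00139 and 0.192 over the fits without 1 library. Ndn had a difference of -2.54 ± 0.30 (SE, adjusted p = 0.0131), and its old wild-type libraries lay below the other 9. The call was lost without any 1 wild-type library and without old knockout replicate 2, with adjusted p between 0.00159 and 0.0938.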

How the results depend on the processing

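The 2 count directions and the Hoxa9 result were recomputed under each alternative. Higher and lower counts, 1477 and 1354 as reported, were 865 higher with library size alone, 452 and 442 with GC offsets, 539 and 536 with offsets for GC content and length, 0 and 0 against a 2-fold minimum, and 882 and 654 with the 6 young libraries fitted alone. Leaving out 1 library gave 774 to 1831 higher and 563 to 1376 lower genes. With GC offsets, the fits without wild-type replicates 1, 2 and 3 and knockout replicates 1, 2 and 3 gave 334, 60, 159, 504, 129 and 608 higher and 329, 84, 160, 455, 113 and 463 lower genes, and fitting the young libraries alone gave 54 and 115 (alternatives chosen after seeing the data). DESeq2 gave 1945 and 1390, limma-voom 1660 and 1437, and no filter 1383 and 1029.

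The replicate block gave 1237 higher and 1162 lower genes, and 281 and 300 with GC offsets. Same-numbered libraries correlated in their deviations from the group means by 0.231, -0.0215 and 0.0614. Knockout replicate 2 correlated most with wild-type replicate 3 (0.0996) and knockout replicate 3 with wild-type replicate 2 (0.0773), so the numbers are not shown to pair the samples.

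The count of genes whose knockout effect differs between ages, 2 as reported, was 58 with DESeq2, 4 with limma-voom, 4 with library size alone, 6 without a filter, 1 at a mean CPM of at least 5, 1 with offsets for GC content and length, and 0 against a 2-fold minimum. Leaving out 1 library gave 0 to 116, and 0 to 59 with GC offsets. Without 1 young library Hoxa9 ranged from -0.83 to -0.51, and it passed without wild-type replicate 1 alone (-0.83).

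Of the 113 named genes that passed, 113 passed with DESeq2, 98 with limma-voom, 111 with the block, 93 with GC offsets and 103 to 110 without 1 young library. The leading genes among them were chosen to pass with GC offsets, so these counts do not stand for all calls. Of all 2831 calls, 23.6% were kept with GC offsets. Sign changes were found for Myod1 (-0.58 with limma-voom, -1.04 to 0.96 without 1 library, lowest without knockout replicate 3, and -0.56 without it and with GC offsets), Fos (-0.16 to 0.56 without 1 library, lowest without knockout replicate 3), Hoxa10 (0.00 with offsets for GC content and length; 0.04, 0.00 and 0.02 with GC offsets and without wild-type replicate 2, knockout replicate 1 or knockout replicate 2) and Myog (0.07 and 0.11 with GC offsets and without wild-type replicate 2 or knockout replicate 3), none of which passed in those fits. The cause was not tested. Of 47 list medians, 10 moved with GC offsets and 13 without knockout replicate 3.

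Knockout replicate 3, at 4193433 gene counts, sets the precision for low genes, and a count of 0 over the knockout group allows up to 0.126 CPM. The settings that left out 1 library ran for the counts and all named genes.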
